A study of Mus musculus with 8 samples.

Results

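The genes described here are 10 immediate early genes, chosen by symbol with earlier results of these data known. They include the zinc finger factors Egr1, Egr2 and Egr3 and the orphan nuclear receptors Nr4a1, Nr4a2 and Nr4a3. The others are the early response genes Ier2 and Ier3 and the Krüppel-like factors Klf4 and Klf6. All 10 were found among the 24346 gene symbols listed in each of 8 RNA sequencing libraries of mouse large intestine. The libraries hold mesenchymal cells sorted as CD45-, EpCAM- and CD31-negative, gp38 (podoplanin) positive, PDGFRα high and Ly6C negative. Cells with no treatment gave 1 library from a Cxcl12 flox/flox mouse line (control) and 1 library from Foxl1cre; Cxcl12 flox/flox mice, in which Cre is driven by Foxl1 and deletes the chemokine gene Cxcl12 (knockout library). Cells of C57BL/6 mice, with no Cre or floxed allele in the labels, gave 3 libraries for the start (0 h) and 3 libraries after 6 h of GABA at 1 mM with taurine at 20 mM. Both agents are named in the labels of the 0 h libraries too, and no 6 h library without them was analysed here, so time and treatment cannot be told apart. The first 2 are called the genotype libraries and the other 6, 3 of them at 0 h, the time-course libraries. The age of the mice, the number of animals behind a library, the strain of the floxed line and any culture of the C57BL/6 cells were not given in the sources used here.

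Immediate early genes are transcribed within minutes of a stimulus, without new protein synthesis, and their short-lived mRNAs disappear soon after the signal ends. Growth factors act on them mainly through ERK kinases and the serum response factor SRF, which binds CArG boxes, while cAMP and calcium act through CREB factors, which bind sites containing TGACG. The proteins are mostly transcription factors that pass the signal on to later genes, and dissociation of a tissue into single cells is a known inducer of the whole class. In fibroblasts Egr1 is known for matrix and growth factor genes, and the NR4A receptors are regulated mainly by their own abundance.

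The 250 bases before a RefSeq transcript start of each of the 3 NR4A genes are shown because Nr4a1 and Nr4a3 had the widest ratios between the libraries. That of Egr2, which differed least, is set beside them. All are from GRCm38.p6 and run 5′ to 3′ on the strand of the gene. RefSeq held a window for 7 of the 10 genes. The starts used for Nr4a1, Nr4a3 and Egr2 are internal to the annotated genes, whose longest forms begin further upstream. Most of the Nr4a3 window lies inside its gene, which begins at base 48045078. Capitals mark TGACG, or CGTCA where it lies on the other strand, in the NR4A genes, and the CArG box in Egr2.
Nr4a1 (chr15:101266596-101266845, plus strand): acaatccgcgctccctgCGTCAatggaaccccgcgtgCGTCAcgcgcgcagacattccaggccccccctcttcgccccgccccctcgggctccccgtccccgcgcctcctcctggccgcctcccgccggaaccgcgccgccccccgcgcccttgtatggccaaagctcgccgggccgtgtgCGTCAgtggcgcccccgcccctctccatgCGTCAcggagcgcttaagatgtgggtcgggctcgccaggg
Nr4a2 (chr2:57124004-57124253, minus strand): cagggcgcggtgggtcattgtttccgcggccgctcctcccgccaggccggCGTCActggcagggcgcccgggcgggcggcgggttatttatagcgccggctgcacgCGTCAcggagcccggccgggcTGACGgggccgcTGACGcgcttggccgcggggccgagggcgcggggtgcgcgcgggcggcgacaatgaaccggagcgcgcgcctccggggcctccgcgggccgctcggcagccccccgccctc
Nr4a3 (chr4:48045055-48045304, plus strand): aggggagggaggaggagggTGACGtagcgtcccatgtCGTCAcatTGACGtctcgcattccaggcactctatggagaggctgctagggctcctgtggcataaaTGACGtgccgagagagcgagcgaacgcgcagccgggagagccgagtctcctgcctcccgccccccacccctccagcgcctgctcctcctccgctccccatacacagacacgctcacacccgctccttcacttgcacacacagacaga
Egr2 (chr10:67537619-67537868, plus strand): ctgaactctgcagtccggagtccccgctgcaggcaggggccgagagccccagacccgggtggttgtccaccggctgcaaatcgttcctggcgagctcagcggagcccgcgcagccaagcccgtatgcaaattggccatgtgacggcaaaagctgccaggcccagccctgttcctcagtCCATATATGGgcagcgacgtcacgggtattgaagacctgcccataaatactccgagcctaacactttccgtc

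Each NR4A window held TGACG 4 times on either strand, and no 2 matches in a window overlapped. Of all 32851 windows of this length, 17.8% held at least 1 match and 0.137% held at least 4. In Nr4a1 the matches began 233, 213, 69 and 40 bases before the start. The windows of Ier3 and Klf6 held 0 matches, that of Klf4 held 1 and that of Egr2 held 2. The CArG box of Egr2 lay from 72 to 63 bases before the start. Egr2 has 5 start windows in RefSeq, of which the middle one is printed, and 4 of them held a CArG box. These windows overlap and hold 2 distinct boxes between them, so they are not separate cases. Of all windows 1.47% held one. The motif letters describe the sequence only.

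The 10 genes are protein-coding. On GRCm38.p6 Egr1 lies on chromosome 18 from 34861207 to 34864956, Egr2 on chromosome 10 from 67534469 to 67542188, and Egr3 on chromosome 14 from 70077317 to 70082613. Nr4a1 spans 101253902 to 101274795 of chromosome 15, Nr4a2 spans 57106830 to 57124003 of chromosome 2 and Nr4a3 spans 48045078 to 48086447 of chromosome 4. Ier2 is on chromosome 8 (84661331 to 84662852), Ier3 on chromosome 17 (35821713 to 35822911), Klf4 on chromosome 4 (55527137 to 55532475) and Klf6 on chromosome 13 (5861489 to 5870393). RefSeq places another gene model over Egr2 (Gm32255) and over Nr4a2 (LOC105244150). Neither model is among the listed symbols. Their strand and exons were not looked up, so whether they share reads with Egr2 or Nr4a2 is unknown.

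Total FPKM (fragments per length of transcript and per mapped fragments of the library) per library ran from 513001 to 579004, and read numbers are unknown. Between 20874 and 21006 genes were above 0 in the genotype libraries and between 14818 and 14974 in the time-course ones. The labelled cell type was checked on 10 mesenchymal markers: all 10 were at or above 1 FPKM in the control library. In the 6 time-course libraries 9 of 10 were, and Foxl1 stood between 0.109 and 0.289 FPKM against 10.2 and 11.6 FPKM in the genotype libraries. The markers themselves differed between the sets: their summed FPKM was 14528 and 16164 in the genotype libraries against 2471 to 2681 in the time-course ones. Dcn stood at 5741 and 6218 against 288 to 364 FPKM and Col3a1 at 3613 and 4176 against 112 to 139 FPKM, while Vim (532 and 605 against 1165 to 1344 FPKM) and Pdpn (96.1 and 91.7 against 281 to 304 FPKM) went the other way. Summed FPKM of 12 leukocyte markers was 234 in the control and 280 in the knockout library, and 1.60 to 11.0 in the time-course libraries. For 13 epithelial markers it was 102, 937 and 2.63 to 8.09, and for 10 endothelial markers 76.4, 48.8 and 17.7 to 24.3. For 10 smooth muscle and pericyte markers it was 674, 798 and 972 to 1069. Of these, Acta2 (305 and 382 against 489 to 550 FPKM), Tagln and Actg2 stood lower in both genotype libraries. The others stood higher in both, such as Kcnj8 (31.5 and 33.6 against 0.0760 to 0.939 FPKM).

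Levels of the 10 genes were compared between the 2 genotype and the 6 time-course libraries. All of the 10 genes but Egr2 and Klf6 stood higher in both genotype libraries than in all 6 time-course ones, led by Nr4a1, Nr4a3 and Klf4. Egr2 overlapped and Klf6 stood lower. The share of all genes separated in this way by any amount was not computed, so this separation cannot be called particular to the 10 genes. By the rule of at least 2-fold on the log2(FPKM + 1) scale with no overlap, 7 of 10 genes were higher and 0 were lower. Over the 12043 genes that averaged 1 FPKM or more the same rule called 21.9% higher and 19.8% lower. The median difference of the 10 genes was 1.45 on the log2 scale, against -0.05 over all 12043 genes. The sets differ in mouse line, treatment and perhaps handling and scaling by the authors, all at once, so these differences are described and not tested.

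**Figure D1:**
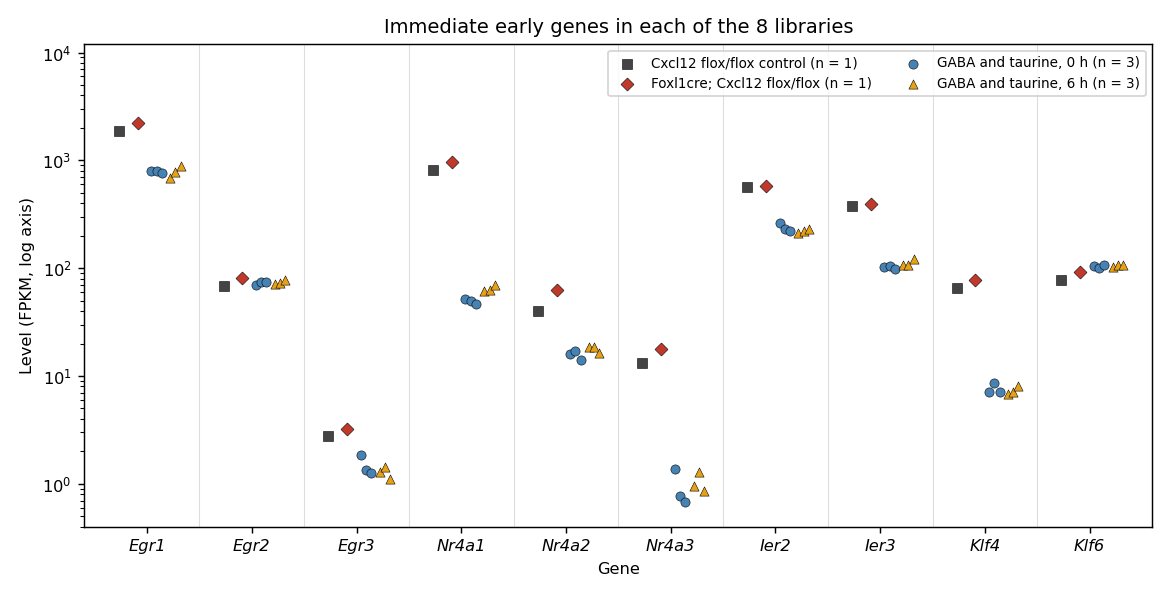
Level of each gene in FPKM (log axis) in each library, 1 point per library: squares, Cxcl12 flox/flox control; diamonds, Foxl1cre; Cxcl12 flox/flox; circles, 0 h; triangles, 6 h of GABA and taurine. For all genes drawn but Egr2 and Klf6 both genotype libraries lie above all 6 time-course ones, and for Nr4a1 the gap runs from 69.5 to 814 FPKM.

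Nr4a1 (Nur77), a nuclear receptor without a known hormone ligand, stood at 814 FPKM in the control library and 956 FPKM in the knockout. At 0 h it stood at 52.0, 49.3 and 46.9 FPKM, and at 6 h at 60.9, 62.8 and 69.5 FPKM. The mean of the genotype libraries was 15.6 times that of the time-course ones, and Nr4a1 moved from ranks 59 and 72 among all genes to ranks between 1582 and 2315. In bulk libraries a smaller share of cells with the mRNA and less mRNA per cell cannot be told apart.

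Nr4a3 (Nor1), a receptor of the same family, stood at 13.2 FPKM in the control library and 17.7 FPKM in the knockout. The time-course libraries held 1.39, 0.772 and 0.675 FPKM at 0 h and 0.966, 1.28 and 0.861 FPKM at 6 h. The ratio of the means was 15.5, close to that of Nr4a1, at levels near 1 FPKM in the time-course libraries. Nr4a2 (Nurr1), the third receptor, stood at 40.1 and 62.5 FPKM in the control and knockout libraries. Its time-course libraries held 16.1, 17.1 and 14.0 FPKM at 0 h and 18.7, 18.7 and 16.3 FPKM at 6 h, a 3.05-fold lower mean. Within the family, Nr4a1 made up 93.9% and 92.3% of the summed NR4A FPKM in the genotype libraries and 73.4% to 80.2% in the time-course ones, while Nr4a2 made up 4.63% and 6.03% and then 18.8% to 25.5%.

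Egr1, the most abundant of the 10 in every library, stood at 1872 FPKM in the control library and 2215 FPKM in the knockout, ranks 17 and 12 of all genes. It remained among the 102 most abundant genes at 804, 795 and 764 FPKM at 0 h and 686, 787 and 890.0 FPKM at 6 h. The ratio of the means was 2.59, with no overlap. Egr2, known for its role in Schwann cells and in T cell tolerance, stood at 68.1 and 81.4 FPKM in the genotype libraries. Its time-course libraries held 70.4, 74.7 and 73.8 FPKM at 0 h and 71.3, 73.4 and 77.6 FPKM at 6 h, inside the range of the genotype ones.

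Egr3 was low throughout, at 2.76 and 3.26 FPKM in the control and knockout libraries. It stood at 1.85, 1.35 and 1.26 FPKM at 0 h and 1.29, 1.43 and 1.11 FPKM at 6 h, a ratio of 2.18 that the pseudocount reduces to 0.76 on the log2(FPKM + 1) scale. By rank within a library Egr3 overlapped between the sets, at percentiles 54.1 to 57.4 in the genotype and 55.8 to 59.3 in the time-course libraries. More genes were above 0 in the genotype libraries (20874 and 21006 against 14818 to 14974), so like percentiles of a low gene do not mean like levels. The fourth EGR gene, Egr4, is not one of the 10 and was singled out after its values were seen. It stood at 0.105 and 0.0838 FPKM in the genotype libraries and between 78.7 and 112 FPKM in the time-course ones, opposite to Egr1. Egr4 thus made up 8.36% to 11.4% of the summed EGR FPKM in the time-course libraries.

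Ier2, a nuclear early response gene, stood at 571 and 579 FPKM in the control and knockout libraries. It stood at 264, 230.0 and 220 FPKM at 0 h and 214, 223 and 233 FPKM at 6 h, a 2.49-fold lower mean. Ier3, which is known to affect survival and ERK signalling, stood at 380.3 and 394 FPKM in the genotype libraries. At 0 h it stood at 103, 104 and 97.6 FPKM and at 6 h at 108, 106 and 122 FPKM, a 3.62-fold lower mean with no overlap.

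Klf4, best known as a pluripotency and differentiation factor, stood at 65.5 FPKM in the control library and 77.8 FPKM in the knockout. Its time-course libraries held 7.04, 8.64 and 7.14 FPKM at 0 h and 6.82, 7.09 and 8.09 FPKM at 6 h, 9.59-fold below the genotype mean. Klf6, a Krüppel-like factor expressed in most tissues, went the other way. It stood at 78.3 and 91.6 FPKM in the genotype libraries, at 105, 101 and 107 FPKM at 0 h and at 103, 106 and 108 FPKM at 6 h. Its time-course mean was 1.24 times the genotype one, the smallest gap of any of the 9 genes without overlap.

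**Figure D2:**
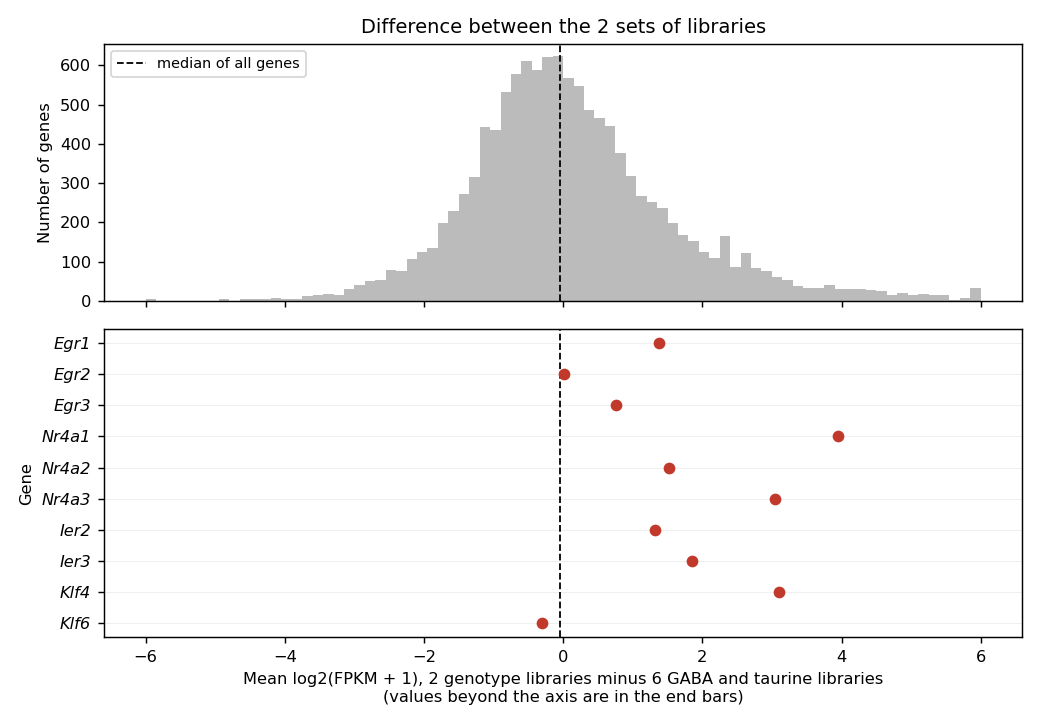
Top, number of genes (of 12043 that averaged 1 FPKM or more) by the difference in mean log2(FPKM + 1) between the 2 genotype and the 6 time-course libraries. Bottom, the same difference for the 10 genes, 1 point each, with the median of all genes (-0.05) as a dashed line; Nr4a1 lies furthest to the right at 3.94 and Klf6 furthest to the left at -0.31.

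The order of the genes by level differed between the sets. In both genotype libraries Egr1 was followed by Nr4a1, Ier2 and Ier3, whose ranges did not overlap. Klf6, Egr2 and Klf4 came next with ranges that overlapped, then Nr4a2, Nr4a3 and Egr3. In the time-course libraries Egr1 was followed by Ier2, then by Ier3 and Klf6, whose ranges overlapped, then by Egr2, Nr4a1, Nr4a2 and Klf4. Egr3 and Nr4a3 came last with overlapping ranges. Nr4a1 thus went from the second to the sixth place, below Egr2 in every time-course library.

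Ratios between genes within a library do not change when a whole library is rescaled. Klf4 over Klf6 was 0.837 in the control and 0.849 in the knockout library and 0.0664 to 0.0852 in the time-course libraries. Nr4a1 over Egr1 was 0.435 and 0.432 in the genotype libraries and 0.0614 to 0.0887 in the time-course ones. Egr1 over Egr2 was 27.5 and 27.2 against 9.62 to 11.5, and Nr4a1 over Nr4a2 was 20.3 and 15.3 against 2.88 to 4.26. Nr4a1 over Nr4a3 overlapped between the sets, at 61.9 and 54.2 against 37.5 to 80.7. The gaps of Klf4 to Klf6, of Nr4a1 to Egr1 and Nr4a2, and of Egr1 to Egr2 were therefore present without any scaling between libraries. The ratio of Nr4a1 to Nr4a3, which stood near 1 FPKM in the time-course libraries, did not separate the sets.

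**Figure D3:**
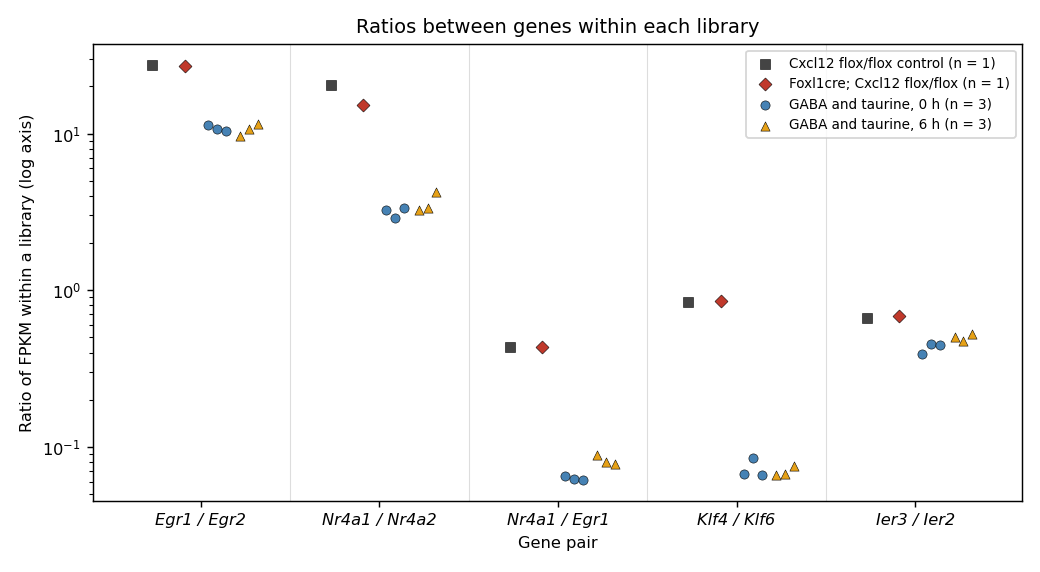
Ratio of the FPKM of 2 genes within each library (log axis), 1 point per library, with the symbols for the 4 groups given in the legend. The genotype libraries lie above all time-course ones for each of the 5 pairs drawn, which are Egr1 over Egr2, Nr4a1 over Nr4a2, Nr4a1 over Egr1, Klf4 over Klf6 and Ier3 over Ier2. The gap is widest for Klf4 over Klf6.

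Scaling the libraries by the median ratio of abundant genes moved the median difference of all genes from -0.05 to 0.37. Under it Egr2 and Klf6 stood above the time-course libraries, by 0.49 and 0.16, and under quantile normalization Klf6 and Egr3 overlapped, at 0.00 and -0.18. Between the control and the 3 libraries at 0 h alone, Egr2 stood lower in the control, by -0.098 on the log2 scale. The other 7 genes kept their direction and their 2-fold gap under each alternative tried.

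Other early response genes were read from 8 lists of the pathway, with 110 genes in all, also chosen with earlier results of these data known. Of the 109 that averaged 1 FPKM or more over the 8 libraries, 34 stood higher by this rule in the genotype libraries and 20 stood lower, where the same rule called 21.9% and 19.8% of all genes. AP-1 and ATF factors leaned the way of the NR4A genes, with 5 of 9 higher and 1 lower. The lower one was Fosl1, at 1.86 and 3.29 FPKM against 160 to 200 FPKM, while Fos, singled out after its values were seen, stood at 3478 and 3923 FPKM against 54.5 to 74.1 FPKM. Feedback inhibitors of MAP kinase signalling were split, with 8 of 17 higher and 6 lower. Among these were Spry1 (185 and 233 FPKM against 22.8 to 43.9 FPKM) and Errfi1 (87.7 and 121 FPKM against 578 to 636 FPKM). Among 19 other early response transcription factors 8 were higher and 4 lower, the latter with Myc at 39.8 and 48.7 FPKM against 252 to 286 FPKM.

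SRF, its cofactors and CREB factors had 4 of 15 higher and 4 lower, and ERK pathway kinases 1 of 13 in each direction. The 22 other early response and mRNA decay genes had 5 higher and 2 lower. Of the EGR corepressors and NR4A partners, 2 of 4 were higher, among them Nab1, a corepressor of EGR proteins, at 31.7 and 37.0 FPKM against 10.6 to 13.0 FPKM. Heat shock genes, which also respond to tissue dissociation, had 1 of 10 higher and 2 lower. The higher one was Dnajb1, at 277 and 337 FPKM against 79.7 to 100 FPKM, and the median of the list was -0.21. Summed leukocyte, epithelial, endothelial and mesenchymal markers were also higher in the genotype libraries, as given above. The sum of smooth muscle and pericyte markers was lower, through Acta2, Tagln and Actg2 alone. The part of all these markers in the levels of the 10 genes was not tested.

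By shape over all 8 libraries, the genes most like Egr1 were Anxa6, Sh3bp5 and Bace1, whose log2(FPKM + 1) values, centred per gene, differed from those of Egr1 by 0.044, 0.056 and 0.059 on average. They were taken from 4140 candidates. For Nr4a1 they were Ms4a4d, Ccl11 and Enho among 1078 candidates, with mean differences of 0.078, 0.094 and 0.098. Ccl11, an eosinophil attractant, stood at 508 and 510 FPKM in the genotype libraries against 28.1 to 40.5 FPKM. All 6 of these genes stood higher in both genotype libraries than in every time-course one. That follows from choosing them by likeness to Egr1 or Nr4a1 over the same libraries.

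The time comparison asks what changed in the cells between 0 h and 6 h of GABA and taurine. Of the 10 genes Nr4a1 rose, and no other member passed the test. Nr4a1 went from 49.4 ± 2.57 to 64.4 ± 4.51 FPKM (SD, n = 3), and all 3 libraries at 6 h lay above all 3 at 0 h. The change was 1.30-fold in the means and 0.37 on the log2(FPKM + 1) scale (SE 0.071, 95% interval 0.22 to 0.53, limma adjusted p = 0.0408). Nr4a3 had a mean under 1 FPKM and was not tested, so 1 of 9 genes tested rose and 0 fell, where 0.550% of all 10910 genes tested passed, 0.238% upward and 0.312% downward. The exact two-sided permutation p of Nr4a1 was 0.1, the smallest that 3 against 3 libraries can give.

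The call for Nr4a1 was near the threshold. With any 1 of the 6 libraries left out, the adjusted p from limma ran from 0.0844 to 0.224, and the log2 change from 0.32 to 0.41. It was also not past the threshold without the filter on low genes (adjusted p = 0.314) or without the intensity trend (adjusted p = 0.345). Relative to Egr1 in the same library, Nr4a1 stood at 0.0614 to 0.0647 at 0 h and 0.0781 to 0.0887 at 6 h, with no overlap. Its ratio to Nr4a2 overlapped between the times, at 2.88 to 3.34 and 3.25 to 4.26. So did its ratio to Nr4a3, at 37.5 to 69.4 and 49.0 to 80.7. Summed epithelial markers also moved, from 2.63 to 3.80 FPKM at 0 h to 4.83 to 8.09 FPKM at 6 h. Of 13 epithelial markers 9 had a higher mean at 6 h, 3 of them without overlap. Of 10 mesenchymal markers 9 had a higher mean at 6 h, 5 of them without overlap. These counts were 8 of 12 and 1 for leukocyte, 8 of 10 and 0 for endothelial, and 5 of 10 and 1 for smooth muscle and pericyte markers. The epithelial marker Krt8 was higher by 1.15 on the log2 scale (limma adjusted p = 0.0319). Krt8 was low, at 0.188 to 2.31 FPKM over the 6 libraries, and its call was lost in 9 of 13 alternatives. The part of any of these marker sets in the change of Nr4a1 was not tested. The 6 h level of Nr4a1 remained far below the 814 and 956 FPKM of the genotype libraries.

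**Figure D4:**
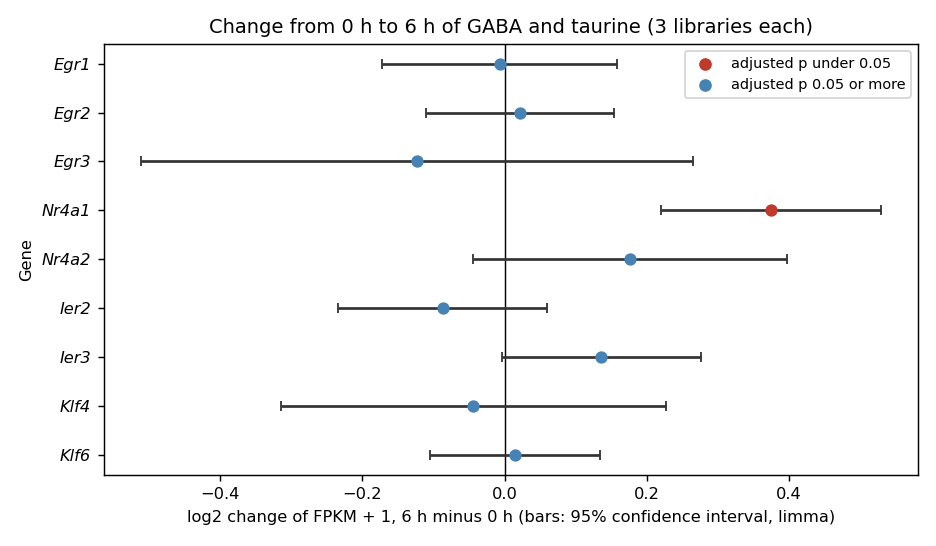
Change in log2(FPKM + 1) from 0 h to 6 h of GABA and taurine for the 9 genes tested, 3 libraries per time, with points for the limma estimate and bars for its 95% confidence interval. The interval of Nr4a1 (0.22 to 0.53) lies above 0, and the other 8 intervals include 0.

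Ier3 also had all 6 h libraries above all 0 h libraries, at 102 ± 3.63 and 112 ± 8.41 FPKM (SD, n = 3), with a log2 change of 0.14 and a limma adjusted p of 0.556. Such separation upward was seen in 2 of the 9 genes tested, Nr4a1 and Ier3, and downward in 0, against 7.25% and 8.01% of all genes tested. Nr4a2 stood at 15.8 ± 1.59 and 17.9 ± 1.40 FPKM (log2 change 0.18, 95% interval -0.04 to 0.40, limma adjusted p = 0.638). Nr4a3 stood at 0.945 ± 0.387 and 1.04 ± 0.220 FPKM, with overlapping groups.

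Egr1 stood at 787 ± 21.0 FPKM at 0 h and 788 ± 102 FPKM at 6 h, where its 3 libraries spread from 686 to 890.0 FPKM. Its 95% interval of the log2 change, -0.17 to 0.16, corresponds to 0.888-fold to 1.12-fold (limma adjusted p = 0.988). Klf6 had the narrowest interval, -0.10 to 0.13 (105 ± 3.01 and 106 ± 2.64 FPKM), and Egr2 came next with -0.11 to 0.15 (73.0 ± 2.28 and 74.1 ± 3.19 FPKM). Larger changes are compatible with the data for the low gene Egr3, with an interval of -0.51 to 0.26 (1.49 ± 0.321 and 1.27 ± 0.160 FPKM), and for Klf4, with -0.31 to 0.23 (7.60 ± 0.898 and 7.34 ± 0.668 FPKM). Ier2 stood at 238 ± 23.0 and 223 ± 9.51 FPKM, an interval of -0.23 to 0.06. The median log2 change of the 9 genes was 0.01, against 0.00 over all genes.

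Of the 106 genes of the 8 pathway lists tested, 0 rose and 1 fell. An unadjusted limma p under 0.05 was found for 20 of the 106, a larger share than the 9.38% of all genes tested. The lists were not matched to all genes by level. The one that fell was Ier5l, an early response gene related to Ier2, from 24.8 ± 9.03 to 6.99 ± 3.66 FPKM (log2 change -1.71, SE 0.29, limma adjusted p = 0.0294). The call was lost in 7 of 14 alternatives, over which the limma adjusted p ran from 0.0074 to 0.360. Among the 16 feedback inhibitors tested, Spred1, which restrains RAS signalling, had the smallest p: it stood at 56.5 ± 3.05 and 45.2 ± 3.41 FPKM (limma adjusted p = 0.0963), followed by Spry1 at 35.6 ± 9.59 and 24.2 ± 1.87 FPKM (limma adjusted p = 0.282). Among AP-1 and ATF factors these were Fosl1 (183 ± 15.8 and 163 ± 3.99 FPKM) and Atf3 (134 ± 5.01 and 118 ± 17.5 FPKM), with limma adjusted p-values of 0.439 and 0.529. Among other early response factors they were Id2 (46.2 ± 2.19 and 52.8 ± 4.57 FPKM) and Klf5 (3.89 ± 0.243 and 2.81 ± 0.555 FPKM).

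Upstream genes showed no call either. Among SRF cofactors and CREB factors, Mkl2 and Atf1 (51.6 ± 3.62 and 46.6 ± 1.81 FPKM) had the smallest p, with limma adjusted p-values of 0.466 and 0.586. For the ERK pathway they were Map2k1, which encodes MEK1 (93.5 ± 7.19 and 104 ± 1.49 FPKM, limma adjusted p = 0.482), and Rps6ka4 (limma adjusted p = 0.687). Rxra and Rxrb, which encode dimer partners of NR4A receptors, had limma adjusted p-values of 0.748 and 0.750. The heat shock genes Hspa8 (2415 ± 85.8 and 2186 ± 35.3 FPKM) and Hsp90ab1 (1251 ± 45.6 and 1142 ± 33.5 FPKM) had 0.321 and 0.390.

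The last comparison sets the library with Foxl1-driven deletion of Cxcl12 against its floxed control. All 10 genes stood higher in the knockout library than in the control library, most of all Nr4a2 (62.5 against 40.1 FPKM, 1.56-fold) and Nr4a3 (17.7 against 13.2 FPKM, 1.34-fold). Over all 14949 genes that averaged 1 FPKM or more 55.0% were higher, and over the 6435 that averaged 10 FPKM or more 68.2% were. With 1 library per genotype there is no replicate check and no test. The knockout library also held the 937 against 102 FPKM of epithelial markers given above, with 13 of 13 higher, and 9 of 12 leukocyte markers were higher. Of the endothelial markers 3 of 10 were higher, and of the smooth muscle and pericyte markers 4 of 10. Their part in these differences was not tested.

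A group lay close together in the deposited FPKM: Egr1, Egr2, Egr3, Nr4a1, Klf4 and Klf6 were 17.0% to 19.6% higher in the knockout library. Under quantile normalization these genes spread from 0.13 for Klf4 to 0.32 for Egr1 on the log2 scale. In the deposited FPKM Ier2 and Ier3 differed least, at 1.46% and 3.73% higher. The median log2 difference of the 10 genes was 0.24, against 0.04 over all genes and 0.09 over the genes with at least 10 FPKM. At least 1.5-fold higher on the log2(FPKM + 1) scale was Nr4a2 alone, 1 of 10, where this rule called 4.16% of all genes higher and 7.00% lower. Nr4a2 lay at percentile 96.4 of all differences and Nr4a3 at 90.9. Nr4a2 fell short of 1.5-fold with the median ratio scaling (0.54 on the log2 scale), under which Ier2 and Ier3 stood lower in the knockout library by 0.067 and 0.035.

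**Figure D5:**
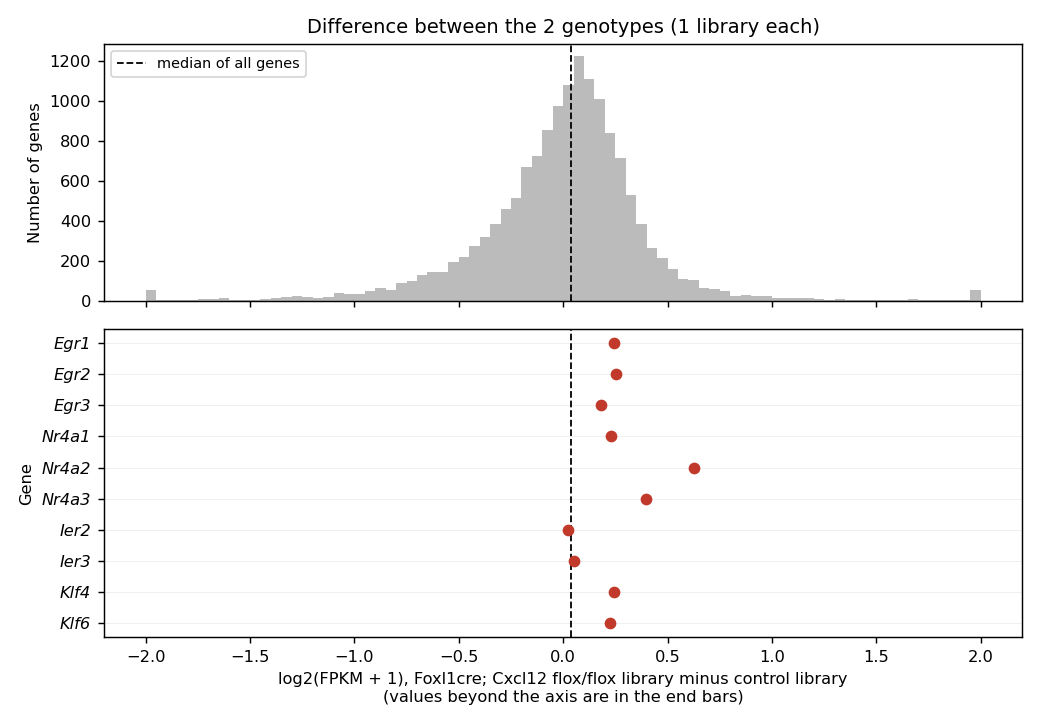
Top, number of genes (of 14949 that averaged 1 FPKM or more) by the difference in log2(FPKM + 1) between the Foxl1cre; Cxcl12 flox/flox library and the control library. Bottom, the same difference for the 10 genes, 1 point each, with the median of all genes (0.04) as a dashed line; all 10 lie above 0, from 0.02 for Ier2 to 0.63 for Nr4a2.

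In the pathway lists 82 of 109 genes stood higher in the knockout library, where 55.0% of all genes and 68.2% of those with at least 10 FPKM did. By the 1.5-fold rule on the log2(FPKM + 1) scale 2 were higher and 1 was lower, where 4.16% and 7.00% of all genes were. Arc, Plk3, Klf5 and Fosl1 were past 1.5-fold higher in FPKM but fell short on that scale. The genes named below have the widest differences in their list among those that averaged 10 FPKM or more. AP-1 and ATF factors had 8 of 9 higher, with Maff at 13.2 against 7.77 FPKM and Atf3 at 493 against 375 FPKM. Feedback inhibitors had 15 of 17 higher and a median log2 difference of 0.31, with Errfi1, an inhibitor of the EGF receptor, at 121 against 87.7 FPKM and the kinase Sik1 at 32.1 against 23.7 FPKM. Among other early response genes 18 of 22 were higher (median 0.11), with Arc at 50.4 against 33.5 FPKM and Plk3 at 26.9 against 17.8 FPKM. Myc (48.7 against 39.8 FPKM) and Per1 (11.2 against 9.11 FPKM) differed most among the other transcription factors that averaged 10 FPKM or more, and Klf5, below that level, stood at 4.08 against 2.62 FPKM. Of these factors 13 of 18 were higher, with a median of 0.08.

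SRF, its cofactors and CREB factors had 11 of 15 higher, with a median of 0.10, and Mef2d (23.2 against 19.6 FPKM) and Crtc2 (24.3 against 21.0 FPKM) furthest among those averaging 10 FPKM or more. Srf itself, below that level, stood at 11.0 against 7.45 FPKM. ERK pathway kinases had 9 of 13 higher and a median of 0.13. Heat shock genes had 6 of 10 higher and a median of 0.05, with Dnajb1 at 337 against 277 FPKM and Dnaja1 at 106 against 87.5 FPKM. Of the corepressors and partners 2 of 5 were higher, with Nab1 at 37.0 against 31.7 FPKM and Rxrb at 18.1 against 21.7 FPKM.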

How the data were processed

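Full-length cDNA libraries (SMART-Seq HT and Nextera XT, per the labels' protocols) were sequenced from 8 samples. The authors deposited FPKM for 24346 gene symbols in 1 table per library, per the file headers. Cuffdiff 2.2.1, TopHat2 2.1.1, SAMtools 0.1.18, Bowtie2 2.2.8 and the build mm10 appear in the submitters' processing notes without a role. The annotation and any scaling across libraries were not given there. FPKM are not counts, and the depth is unknown, so no count test or counting interval was used. For the 6 h and 0 h libraries, log2(FPKM + 1) of the 10910 genes that averaged 1 FPKM or more went into limma 3.58.1 (R 4.3.3, intensity trend), with Benjamini-Hochberg adjustment over all genes and a threshold of 0.05. Labels do not say that replicates were separate animals or cultures, so the p-values reflect the spread between libraries alone, which may be technical. Genotypes (1 library each) and the 2 library sets were described without a test. The fit was tested on simulated data. All 10 genes are named. Of each pathway list the text names the genes past the test, or else the 2 with the smallest p, and the 2 largest genotype differences among genes averaging 10 FPKM or more; for the ERK pathway list the latter are not reported here. Genes most like Egr1 or Nr4a1 had the smallest mean absolute difference over the 8 libraries, among genes averaging 10 FPKM or more. The genes and lists were chosen with earlier results of these data known. Alternatives were other pseudocounts, filters and scalings, a replicate block and leaving out each library.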

Additional observations from a re-analysis of the deposited data

How the results depend on the processing

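In the time comparison 1 gene passed, Nr4a1; 0 passed without the filter, without the intensity trend, with the replicate block, or with any 1 library left out. Its adjusted p from limma was 0.0193 to 0.0471 in the 5 alternatives that kept the call and 0.112 with the replicate block, which changed no other member's call. Same-numbered libraries did not deviate together (correlations of -0.044, 0.013 and -0.028 across genes), so the numbers were not taken as pairs. Over all genes the count past the threshold ran from 0 to 103 between fits, with 60 as reported. Changes near 0 turned direction: Egr1 stood at 0.0045 with median ratio scaling, 0.016 with quantile normalization and -0.098 to 0.089 with a library left out, and over the same fits Egr2 ran from -0.012 to 0.048, Klf4 from -0.11 to 0.041 and Klf6 from -0.0074 to 0.035. In the genotype comparison 1 gene, Nr4a2, was at least 1.5-fold apart, and 0 were with a pseudocount of 5, median ratio scaling or quantile normalization. The median difference between the 2 library sets, 1.45, was 1.92 with median ratio scaling, 1.64 with quantile normalization and 1.28 for the control against the 0 h libraries. Read numbers are unknown, so the precision of low genes such as Egr3 and Nr4a3 cannot be given.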
